A study of Mus musculus with 4 samples.

Results

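The 10 genes described here encode proteins that hold back mTORC1, parts of it, or targets of it (Eif4ebp1 and Eif4ebp2). mTORC1 is the protein kinase complex through which cells match protein synthesis to nutrients. The genes are Eif4ebp1, Eif4ebp2, Sesn1, Sesn2, Sesn3, Ddit4, Ddit4l, Deptor, Rptor and Mtor. They were taken by gene symbol and all 10 were found among the 22488 genes listed for each library. Expression was measured by RNA sequencing in cultured mouse vascular smooth muscle cells of strain C57BL/6 at passages 4 to 10, collected 48 hours after transfection. The 2 groups were cells given circEsyt2 siRNA, aimed at a circular RNA whose host gene is Esyt2 (2 libraries), and cells given scramble siRNA, a control siRNA (2 libraries). No sample of untransfected cells was analysed, so a difference made by the circEsyt2 siRNA and one made by the scramble siRNA cannot be told apart. The 10 genes were chosen by name with their fold changes between these same 4 libraries already known, and so in part selected on FPKM in this comparison. Their values and calls are therefore a description and support nothing further. No label says that libraries of a group came from separate cultures, so every p-value given measures only the spread between these libraries, which may be technical.

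mTORC1 is built from the kinase mTOR and the scaffold raptor, which Mtor and Rptor encode. When amino acids and growth factors are plentiful it sits on the lysosome and phosphorylates the 4E-BPs, small proteins that otherwise hold the cap-binding factor eIF4E and block translation initiation. Several proteins act as brakes: sestrins bind GATOR2 and keep the amino acid signal from the Rag GTPases, DDIT4 (also called REDD1) acts through the TSC complex on the GTPase Rheb, and DEPTOR binds mTOR itself. In vascular smooth muscle this pathway is known for its part in growth and in the shift away from the contractile state, and mTOR inhibitors are used to coat arterial stents.

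The deposited values were FPKM, which scale the reads or fragments of a gene by its length and the library size and allow levels of different genes to be compared. The libraries held 3765056 and 3127224 counted reads with circEsyt2 siRNA and 2516428 and 4116791 with scramble siRNA. All 8 smooth muscle markers were above 0 in each library, at 919 and 873 summed FPKM with circEsyt2 siRNA and 1527 and 1545 with scramble siRNA, but most of this was Acta2, and Tagln was no higher than 10.4 FPKM in any library. The 6 fibroblast markers summed to 447 and 505 FPKM with circEsyt2 siRNA and 638 and 570 with scramble siRNA. The part of these lower marker levels in the differences below was not tested. The 12 hepatocyte markers summed to 3362 FPKM in circEsyt2 siRNA replicate 1 and 108 in replicate 2, against 16.7 and 8.55 FPKM with scramble siRNA, where Apoa2, Apoc3 and Fgg were at 0 in both libraries. circEsyt2 siRNA replicate 1 had the highest sum, and the main results are given without it too. Replicate 2 was also above both scramble libraries, so leaving out replicate 1 does not remove this difference between the groups. The part of hepatocyte RNA in the differences below was not tested. The 7 endothelial markers summed to 5.11 and 3.97 FPKM with circEsyt2 siRNA and 2.81 and 3.28 with scramble siRNA. The 7 leukocyte markers summed to 35.2 and 4.83 FPKM with circEsyt2 siRNA and 3.88 and 6.81 with scramble siRNA. The 5 erythroid markers summed to 15.2 and 0.665 FPKM with circEsyt2 siRNA and 1.32 and 1.88 with scramble siRNA. The host gene Esyt2 measured 40.6 and 48.7 FPKM with circEsyt2 siRNA and 53.4 and 50.6 with scramble siRNA and was not called by limma, a linear model fitted over all genes (Benjamini-Hochberg adjusted p = 0.318); the row counts linear and circular RNA of Esyt2 together, so it is no check of the knockdown. In bulk RNA, fewer cells of a type and less RNA per cell cannot be told apart.

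Eif4ebp1, Sesn2 and Ddit4 rose with circEsyt2 siRNA and Ddit4l fell, while the other 6 genes did not pass the test. All 10 passed the filter of a mean of at least 1 FPKM over the 4 libraries, although the means of 2 of them, Sesn1 and Sesn3, were below 1 with circEsyt2 siRNA. A gene is called here at an adjusted p under 0.05 over the 11290 genes tested, of which 12.7% were called in either direction, 5.47% higher and 7.26% lower. Fold changes are on the scale of log2(FPKM + 1), which understates the change of low genes. The 2 groups did not overlap for 9 of the 10 genes, 4 higher and 5 lower, beside 60.7% of all tested genes, 29.7% higher and 31.1% lower. The median log2 fold change was −0.27 over the 10 genes and 0.00 over all tested genes. Without scramble replicate 1 and without scramble replicate 2 limma called 0 genes of the whole table, and all 4 calls were lost. In these fits 1959 and 2231 genes had an unadjusted p below 0.05. Without circEsyt2 siRNA replicate 1 the same 4 genes were called, and without replicate 2 the call of Ddit4 was lost. It was lost as well with the replicate number as a block, a fit that called 8.93% of all tested genes.

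**Figure D1:**
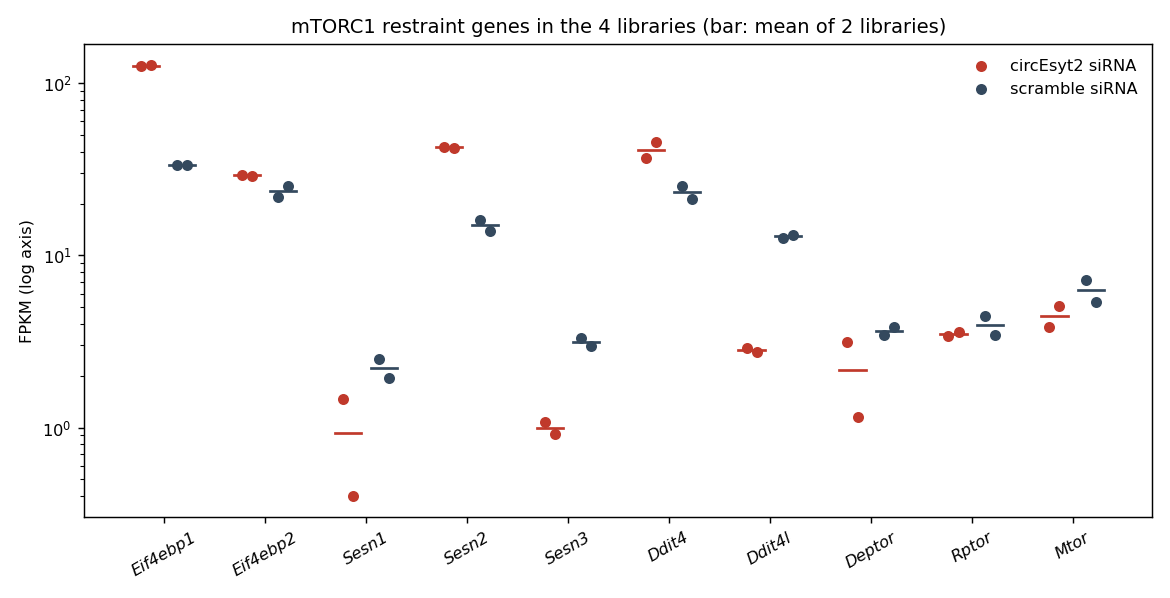
FPKM of the 10 genes on a log axis, with 1 point per library and a bar at the mean of the 2 libraries of a group, circEsyt2 siRNA in red and scramble siRNA in dark blue. Eif4ebp1 lies near 126 FPKM in both circEsyt2 siRNA libraries and near 33 in both scramble libraries, and Ddit4l shows the opposite order.

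Among the 4E-BPs, Eif4ebp1 was the most abundant of the 10 genes and had the largest rise, whereas Eif4ebp2 differed little. Eif4ebp1 encodes 4E-BP1, a translation repressor that mTORC1 inactivates by phosphorylation, and is found on chromosome 8 (GRCm38, 27260329 to 27276674, plus strand). It measured 126 and 127 FPKM in the circEsyt2 siRNA libraries, against 33.3 and 33.6 FPKM in the scramble libraries. The replicates of each group were nearly equal, and the groups were far apart. The mean was 126 ± 0.740 FPKM with circEsyt2 siRNA and 33.5 ± 0.233 with scramble siRNA (SD, n = 2 each), 3.77-fold higher, and the log2 fold change was 1.89 (SE 0.10). These values rest on 1040 and 871 counted reads with circEsyt2 siRNA and on 184 and 304 with scramble siRNA. Over 13 alternative fits the log2 fold change of Eif4ebp1 lay between 1.82 and 1.91.

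Eif4ebp2, which encodes the related repressor 4E-BP2, lies on chromosome 10 at 61428491 to 61452661, minus strand. It measured 29.2 and 29.1 FPKM with circEsyt2 siRNA and 21.9 and 25.4 FPKM with scramble siRNA. Both circEsyt2 siRNA libraries were above both scramble libraries, but the log2 fold change of 0.29 (SE 0.13) did not pass the test. It was 0.19 without scramble replicate 1. Eif4ebp1 thus made up 81.2% and 81.3% of the summed FPKM of this pair with circEsyt2 siRNA, against 60.3% and 56.9% with scramble siRNA. The third family member, Eif4ebp3, was listed at 2.14 and 0 FPKM with circEsyt2 siRNA and at 0 and 0.326 with scramble siRNA, too low to be tested. Eif4e, which encodes the cap-binding protein that the 4E-BPs hold, measured 43.9 and 41.2 FPKM with circEsyt2 siRNA and 35.1 and 32.1 with scramble siRNA and was not called (limma, adjusted p = 0.128). The ratio of summed Eif4ebp1 and Eif4ebp2 FPKM to Eif4e FPKM was 3.53 and 3.78 with circEsyt2 siRNA, against 1.57 and 1.84 with scramble siRNA. These ratios are of RNA, and no protein or phosphorylation was measured.

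In the sestrin family, Sesn2 rose while the values of Sesn1 and Sesn3 were lower. Sestrin 2, the product of Sesn2, binds leucine and restrains mTORC1 when leucine is scarce. Its gene lies on chromosome 4 at 132492032 to 132510501, minus strand. Sesn2 measured 42.5 and 42.2 FPKM with circEsyt2 siRNA and 16.0 and 13.8 FPKM with scramble siRNA. The gap between the groups was wider than the spread within either. The means were 42.4 ± 0.183 FPKM with circEsyt2 siRNA and 14.9 ± 1.53 with scramble siRNA (SD, n = 2 each), 2.84-fold higher, with a log2 fold change of 1.45 (SE 0.13). Sesn2 had 556 and 459 counted reads with circEsyt2 siRNA and 140 and 198 with scramble siRNA, and its log2 fold change lay between 1.35 and 1.55 over the alternative fits. Its promoter is shown because Sesn2 and Ddit4 are the members with a RefSeq promoter entry that rose together. It covers 250 bases before and 50 after the RefSeq start on GRCm38.p6, chr4:132510407-132510706, minus strand, written 5′ to 3′. Capitals mark CCAAT on either strand, here printed as ATTGG because it lies on the strand opposite to the one shown.
Sesn2 promoter: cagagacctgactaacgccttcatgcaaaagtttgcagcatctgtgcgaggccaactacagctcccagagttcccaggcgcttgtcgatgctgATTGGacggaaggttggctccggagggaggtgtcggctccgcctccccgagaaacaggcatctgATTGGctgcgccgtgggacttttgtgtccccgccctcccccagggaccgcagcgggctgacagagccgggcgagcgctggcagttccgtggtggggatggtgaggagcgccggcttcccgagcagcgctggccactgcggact
The Sesn2 window holds CCAAT 2 times, with first bases at −157 and −93 relative to the start, and 37.4% of all 32851 mouse promoter windows of this length hold at least 1.

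Sesn3, which encodes a sestrin known as a target of FoxO factors, lies on chromosome 9 at 14275067 to 14333101, plus strand. It measured 1.08 and 0.921 FPKM with circEsyt2 siRNA and 3.33 and 2.97 FPKM with scramble siRNA, from 62 and 44 counted reads and from 128 and 187. The groups did not overlap, yet the log2 fold change of −1.05 (SE 0.27) did not pass the test. Sesn3 was called lower when limma's voom was run on the counted reads, with a log2 fold change of −1.62, and when eBayes was run without a trend. voom called 18.2% of the genes it tested, and the fit without a trend 5.11%.

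Sesn1, a p53 target that encodes another sestrin, lies on chromosome 10 at 41809935 to 41908424, plus strand. It measured 1.47 and 0.402 FPKM with circEsyt2 siRNA and 2.49 and 1.95 FPKM with scramble siRNA, and the second circEsyt2 siRNA value rests on 5 counted reads. Sesn1 had a log2 fold change of −0.79 (SE 0.39) and was not called. It was −1.20 without circEsyt2 siRNA replicate 1, in which hepatocyte markers were highest, and −0.38 without replicate 2. The part of the hepatocyte RNA in this spread was not tested. The 3 sestrins summed to 45.0 and 43.6 FPKM with circEsyt2 siRNA and to 21.8 and 18.8 FPKM with scramble siRNA. Sesn2 made up 94.3% and 97.0% of that sum with circEsyt2 siRNA and 73.3% and 73.7% with scramble siRNA, so the family was drawn more narrowly from 1 gene in the circEsyt2 siRNA libraries.

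**Figure D2:**
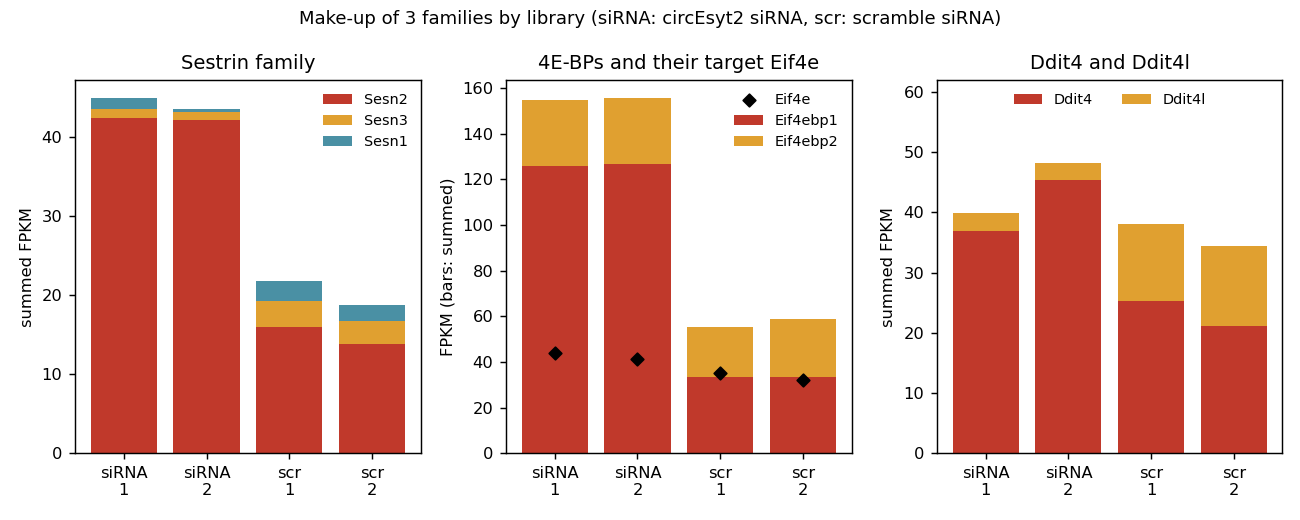
Summed FPKM of 3 families in each library, circEsyt2 siRNA libraries left and scramble libraries right, with bars split by gene and Eif4e as black diamonds. The sestrin and 4E-BP sums are higher in both circEsyt2 siRNA libraries, while the Ddit4 and Ddit4l sums lie closer, at 39.8 and 48.1 FPKM against 38.0 and 34.3, with a smaller share of Ddit4l.

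Ddit4 and its relative Ddit4l moved in opposite directions. Ddit4 encodes the stress-induced protein that restrains mTORC1 through the TSC complex, and lies on chromosome 10 at 59949669 to 59951834, minus strand. It measured 36.9 and 45.4 FPKM with circEsyt2 siRNA and 25.4 and 21.2 FPKM with scramble siRNA. The replicates of Ddit4 were further apart than those of Sesn2, and the groups did not overlap. The mean was 41.1 ± 5.97 FPKM with circEsyt2 siRNA and 23.3 ± 2.96 with scramble siRNA (SD, n = 2 each), 1.77-fold higher, with a log2 fold change of 0.79 (SE 0.16). This was the least stable of the 4 calls. It was also lost with eBayes without a trend, and its log2 fold change was 0.94 without circEsyt2 siRNA replicate 1 and 0.65 without replicate 2.

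Ddit4l, also called REDD2, encodes the related protein and lies on chromosome 3 at 137621612 to 137628333, plus strand. It measured 2.91 and 2.74 FPKM with circEsyt2 siRNA and 12.7 and 13.2 FPKM with scramble siRNA. The replicates lay close together and the groups far apart. The mean was 2.83 ± 0.122 FPKM with circEsyt2 siRNA and 12.9 ± 0.345 with scramble siRNA (SD, n = 2 each), 4.57-fold lower, and Ddit4l fell by 1.86 on the log2 scale (SE 0.16). The values rest on 32 and 25 counted reads with circEsyt2 siRNA and on 93 and 158 with scramble siRNA. Ddit4l made up 7.32% and 5.70% of the summed FPKM of both genes with circEsyt2 siRNA, against 33.3% and 38.3% with scramble siRNA. The RefSeq promoter windows of both genes are shown because the genes are relatives that moved apart. That of Ddit4 is chr10:59951721-59952020, minus strand, and that of Ddit4l is chr3:137623422-137623721, plus strand, both on GRCm38.p6. Capitals mark CCAAT and ACGTG, the core of a hypoxia response element, on either strand in Ddit4, and TATAAA, the letters of a TATA box, in Ddit4l.
Ddit4 promoter: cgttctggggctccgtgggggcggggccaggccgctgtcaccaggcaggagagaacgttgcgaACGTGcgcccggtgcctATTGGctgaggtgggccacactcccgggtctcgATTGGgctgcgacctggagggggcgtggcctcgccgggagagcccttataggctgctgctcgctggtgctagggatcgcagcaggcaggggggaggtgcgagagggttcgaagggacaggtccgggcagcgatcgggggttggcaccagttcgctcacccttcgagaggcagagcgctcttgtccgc
Ddit4l promoter: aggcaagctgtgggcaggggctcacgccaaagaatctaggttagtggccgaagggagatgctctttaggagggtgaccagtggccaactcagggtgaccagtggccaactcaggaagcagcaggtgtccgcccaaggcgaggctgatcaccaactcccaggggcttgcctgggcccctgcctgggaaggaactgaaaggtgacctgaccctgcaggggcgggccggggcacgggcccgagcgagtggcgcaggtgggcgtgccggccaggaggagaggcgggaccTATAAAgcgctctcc
ACGTG has its first base at −187 relative to the start of Ddit4 and is held by 19.6% of all promoter windows, and TATAAA has its first base at 36 after the start of Ddit4l and is held by 13.6%.

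Across the 10 genes, RefSeq promoters were found for 8, with 9 windows because Sesn1 has 2 starts. Eif4ebp1 and Deptor had no window and were not searched. Each of the motifs was searched on both strands. CCAAT was in 6 of the 9 windows, those of Sesn1 (both), Sesn2, Sesn3, Ddit4 and Mtor, and ACGTG was in 3, those of Ddit4, Eif4ebp2 and Rptor. TGTTTAC, a FoxO motif, was in 1 window of Sesn1 and in 3.65% of all windows. TGATGNAA, a composite site of the C/EBP and ATF type, was in 0 of the 9 windows and in 3.97% of all windows. CCAAT and TATAAA were added after the sequences were seen. Genes that rose and genes that did not both hold CCAAT, and a match describes letters and not a working site.

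The gene of the inhibitor DEPTOR and the genes of the complex itself were not called. Deptor lies on chromosome 15 at 55112317 to 55259271, plus strand, and encodes a protein that binds mTOR and lowers its activity. It measured 3.14 and 1.15 FPKM with circEsyt2 siRNA and 3.45 and 3.86 FPKM with scramble siRNA. The circEsyt2 siRNA replicates differed more from each other than replicate 1 did from the scramble libraries. The log2 fold change was −0.64 (SE 0.36), and it was −1.11 without circEsyt2 siRNA replicate 1 and −0.17 without replicate 2. The higher of the 2 values came from the library with 3362 summed FPKM of hepatocyte markers, whose part in it was not tested. The exons of Deptor share 303 bp, 3.4% of their length, with Gm9920 on the other strand, and without a stated strand setting the reads of both cannot be separated.

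Mtor lies on chromosome 4 at 148448611 to 148557683, plus strand. It measured 3.84 and 5.06 FPKM with circEsyt2 siRNA and 7.23 and 5.36 FPKM with scramble siRNA, a log2 fold change of −0.42 (SE 0.22). The groups did not overlap, but replicate 2 of circEsyt2 siRNA and replicate 2 of scramble siRNA differed by less than the replicates of either group. The log2 fold change of Mtor was −0.26 without circEsyt2 siRNA replicate 1 and −0.23 without scramble replicate 1. Rptor lies on chromosome 11 at 119602905 to 119899576, plus strand, and measured 3.39 and 3.58 FPKM with circEsyt2 siRNA and 4.42 and 3.43 FPKM with scramble siRNA. Rptor was the gene whose groups overlapped, and its log2 fold change was −0.13 (SE 0.21). The depth behind Rptor was 151 to 172 counted reads with circEsyt2 siRNA and 150 to 190 with scramble siRNA.

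**Figure D3:**
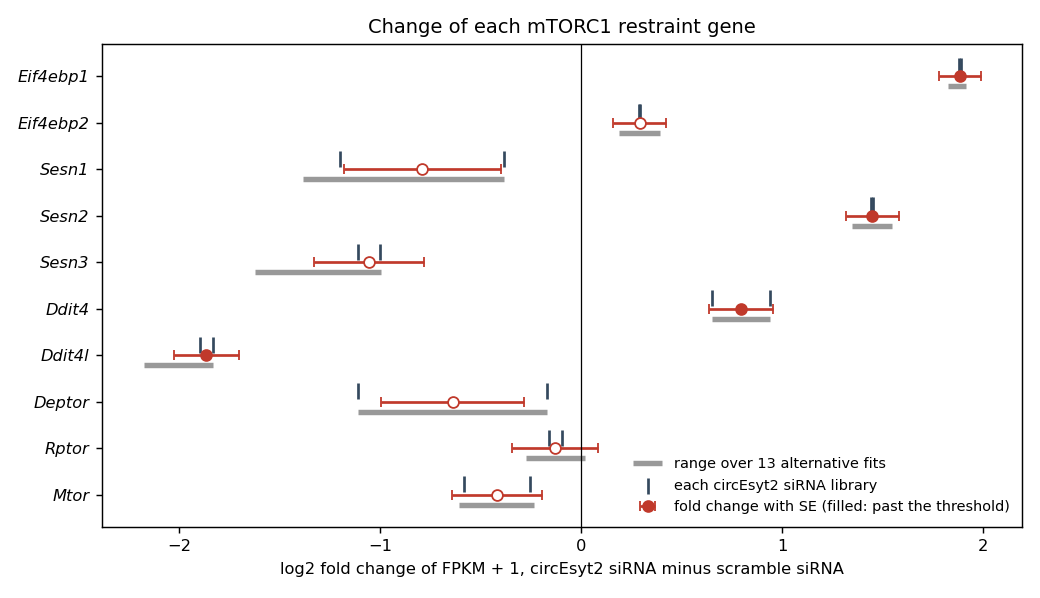
Log2 fold change of FPKM + 1 for each gene, circEsyt2 siRNA minus scramble siRNA, with its standard error (circles, filled where called), the value of each circEsyt2 siRNA library relative to the scramble mean (dark blue ticks) and the range over 13 alternative fits (grey bars). The ticks of Eif4ebp1 and Sesn2 nearly coincide, while those of Sesn1 lie at −0.38 and −1.20 and those of Deptor at −0.17 and −1.11.

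The order of levels also differed between the groups. With circEsyt2 siRNA it ran Eif4ebp1, Sesn2, Ddit4, Eif4ebp2, Mtor, Rptor, Ddit4l, Deptor, Sesn3 and Sesn1 by mean FPKM. In that group Sesn2 and Ddit4, Ddit4l and Deptor, and Sesn3 and Sesn1 were neighbours whose libraries overlapped. With scramble siRNA the order was Eif4ebp1, Eif4ebp2, Ddit4, Sesn2, Ddit4l, Mtor, Rptor, Deptor, Sesn3 and Sesn1, with overlap between Eif4ebp2 and Ddit4 and between Rptor and Deptor. Eif4ebp1 was first in both, at 126 FPKM with circEsyt2 siRNA and 33.5 with scramble siRNA, and Sesn1 was last in both, at 0.934 and 2.22 FPKM. Ddit4l was above Mtor and Rptor with scramble siRNA and below both with circEsyt2 siRNA.

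Another 88 genes, termed pathway genes here, were arranged in 5 lists. The last list holds 10 transcription factor genes, and the others hold genes of the mTOR pathway. Of the 88 genes, 84 could be tested, and 13 rose and 2 fell. That is 17.9% of the tested pathway genes, beside 12.7% of all tested genes. The median log2 fold change of the tested pathway genes was 0.15, beside 0.00 over all tested genes. The transcription factor list gave 3 of the 13 rises. In each fit without 1 library fewer of the 15 were called, and fewer genes of the whole table were called too. Such a fit leaves 1 library in a group, so it cannot show whether the 15 calls rest on single libraries. The 6 calls lost without circEsyt2 siRNA replicate 1, where hepatocyte markers were high, were those of Prr5l, Rraga, Prkaa1, Pik3ca, Pik3r1 and Eif4a1. The count was 9 of 88 with a filter of at least 0.3 FPKM and 7 of 88 without a filter on low values. It was 4 of 84 with eBayes without a trend and 23 of 84 with voom on the counted reads. In the same order, these fits called 7.14%, 4.85%, 5.11% and 18.2% of all genes they tested.

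Of the 28 genes that carry the amino acid signal to the Rag GTPases, 27 were tested, 5 rose and 0 fell. That is 18.5% called, beside 12.7% of all tested genes. Rragc, a Rag GTPase gene, measured 116 and 135 FPKM with circEsyt2 siRNA and 64.2 and 60.3 with scramble siRNA, a log2 fold change of 0.997 (SE 0.12; limma, adjusted p = 0.00781). Rragd, its closest relative, measured 6.88 and 9.09 FPKM with circEsyt2 siRNA and 2.54 and 3.24 with scramble siRNA (log2 fold change 1.20, SE 0.22; adjusted p = 0.0228). Both libraries of circEsyt2 siRNA were above both of scramble siRNA for each gene. Lamtor1, a subunit of the Ragulator that anchors the Rags on the lysosome, rose by 0.71, and Fnip2, a partner of folliculin, rose by 0.89. Rraga, named after its values were seen, rose by 0.60. Rraga kept its call in 6 of 13 alternative fits. It lost the call with a filter at 0.3 FPKM, without a filter on low values, with eBayes without a trend and in each fit without 1 library. The exons of Lamtor1 share 18.7% of their length with Lrrc51 on the other strand, and those of Rragc share 7.9% with another gene. None of the GATOR and KICSTOR genes, which lie between the sestrins and the Rags, was called. Castor1 of the same list, named after its values were seen, was lower and just missed the threshold (limma, adjusted p = 0.0504). It measured 5.91 and 9.75 FPKM with circEsyt2 siRNA and 14.9 and 17.7 with scramble siRNA. Castor1 was called lower in 5 of 13 alternative fits.

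Of the 9 genes of mTOR complex subunits and assembly factors 2 rose and 0 fell, 22.2% called beside 12.7% of all tested genes. Akt1s1, which encodes PRAS40, another inhibitor bound to raptor, measured 38.4 and 47.4 FPKM with circEsyt2 siRNA and 19.5 and 20.9 with scramble siRNA. Its log2 fold change was 1.04 (SE 0.15), and the adjusted p from limma was 0.0118. The log2 fold change of Akt1s1 was 1.19 without circEsyt2 siRNA replicate 1 and 0.89 without replicate 2. Akt1s1 was not called with eBayes without a trend (limma, adjusted p = 0.0515). Prr5l, which encodes a partner of mTORC2, the second mTOR complex, rose by 0.93 (SE 0.21; adjusted p = 0.0398). Leaving out replicate 1 or replicate 2 of circEsyt2 siRNA ended the call of Prr5l too.

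Of 19 tested genes for the input from growth factors and energy through TSC and Rheb, 2 rose, 2 fell and 15 were not called, 21.1% called beside 12.7% of all tested genes. Of this list 0 genes were called without a filter on low values, 0 with eBayes without a trend and 2 with the replicate block. These fits called 4.85%, 5.11% and 8.93% of all genes they tested. Fewer genes were called without either circEsyt2 siRNA replicate, in this list and in the whole table. Prkab2, a regulatory subunit gene of the energy sensor AMPK, measured 4.12 and 3.39 FPKM with circEsyt2 siRNA and 8.11 and 7.91 with scramble siRNA. It fell by 0.93 on the log2 scale (SE 0.18; limma, adjusted p = 0.0277), and Pik3r1, a regulatory subunit gene of PI3-kinase, fell by 0.85. Among catalytic subunit genes, Prkaa1 of AMPK rose by 0.88 and Pik3ca of PI3-kinase by 0.59, while Prkaa2 of AMPK was too low to be tested. Without circEsyt2 siRNA replicate 1 the adjusted p from limma was 0.0749 for Prkaa1, 0.117 for Pik3ca and 0.0799 for Pik3r1, and with the replicate block it was 0.083 for Pik3ca and 0.0527 for Pik3r1. Tsc1, Tsc2 and Rheb were not called.

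Of the 19 tested genes for mTORC1 substrates and the cap-binding complex, 1 rose and 0 fell. That is 5.26% called, below the 12.7% of all tested genes. Eif4a1, the RNA helicase gene of that complex, rose by 0.46 (SE 0.09; limma, adjusted p = 0.0311). Leaving out replicate 1 or replicate 2 of circEsyt2 siRNA ended this call. Of 10 transcription factor genes known to act on the members or in the same stress response, 3 rose and 0 fell. That is 30% called, beside 12.7% of all tested genes. Atf4, known to induce Sesn2, Ddit4 and Eif4ebp1, measured 191 and 189 FPKM with circEsyt2 siRNA and 65.9 and 70.2 with scramble siRNA. Its partner genes Ddit3 and Cebpb rose by 2.27 and 0.65. The exons of Cebpb share 20.7% of their length with Tmem189, and those of Ddit3 share 4.0% with Mars. Cebpb was near the threshold (limma, adjusted p = 0.0438). It was not called with quantile scaling, with a filter at 0.3 FPKM, without a filter on low values or with eBayes without a trend. The log2 fold change of Cebpb was 0.83 without circEsyt2 siRNA replicate 1 and 0.46 without replicate 2. Trp53, Foxo1, Foxo3, Foxo4, Hif1a, Nfe2l2 and Nr3c1 were not called.

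**Figure D4:**
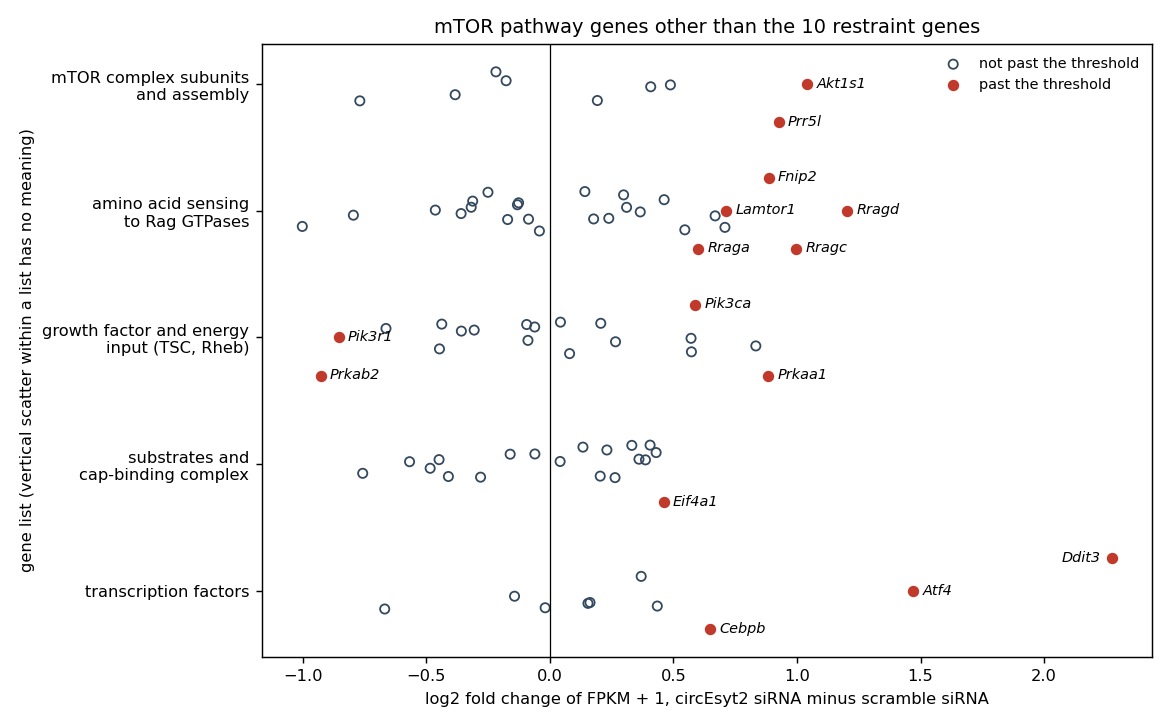
Log2 fold change of FPKM + 1, circEsyt2 siRNA minus scramble siRNA, of 84 tested pathway genes in 5 lists. There is 1 point per gene, and the 15 called genes are filled and named. The lowest list holds transcription factor genes, and the others hold genes of the mTOR pathway. Rragd, Rragc, Fnip2, Lamtor1 and Rraga lie to the right in the amino acid list, and Prkab2 and Pik3r1 to the left in the list of growth factor and energy input.

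The genes with the most similar profiles were found by the root mean square distance between centred log2(FPKM + 1) values over the 4 libraries (in log2 units), for the 3 members with the largest fold changes. Nearest to Eif4ebp1 were Psph and Asns, enzymes of serine and asparagine synthesis, and Slc7a5, an amino acid transporter, at distances of 0.04, 0.04 and 0.06. Psph measured 20.8 and 20.2 FPKM with circEsyt2 siRNA and 5.14 and 4.99 with scramble siRNA. Nearest to Sesn2 were Mdfic, Acsbg1 and Cttnbp2nl, at 0.05, 0.06 and 0.07, and nearest to Ddit4l were Dram1, a p53-induced gene linked to autophagy, Sema3c, a secreted guidance factor, and Cavin2, a caveolar coat protein, at 0.03, 0.04 and 0.06. Dram1 measured 6.28 and 5.99 FPKM with circEsyt2 siRNA and 23.8 and 24.1 with scramble siRNA. With 4 libraries such a likeness describes mainly the difference between the groups.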

How the data were processed

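RNA from 2 circEsyt2 siRNA and 2 scramble siRNA libraries was sequenced as paired reads of 150 bp, per the labels. The submitters' processing notes name Trimmomatic, HISAT2, featureCounts and the builds GRCm38 and mm10. Tool versions, the strand setting and the annotation used were not given in the sources used here. The authors deposited FPKM per gene. With exon lengths of GENCODE M21, 96.7% of genes above 0 gave whole read numbers in all 4 libraries (tolerance 0.01). In each library more genes held 2 counted reads (1473 to 1883) than 1 (427 to 716), as when both mates of a pair are counted, which was not tested. Counted reads may therefore not be independent, and no intervals were computed from them. For a gene 1 kb long, 1 counted read equals 0.243 to 0.397 FPKM.

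The test was limma (version 3.58.1, R 4.3.3), using lmFit and a trended eBayes on log2(FPKM + 1), over 11290 genes averaging at least 1 FPKM, two-sided, with Benjamini-Hochberg adjustment over all of them. The fit was also run on simulated reads that shared a common spread and held no outlying library, so that run cannot vouch for these libraries. The 10 genes and the lists were chosen with earlier results of these data known, and 1 listed pathway gene is not reported here. Named genes were the 10, at most 4 called genes per pathway list and direction with the smallest p, 3 nearest profiles for each of 3 members, and Esyt2. Alternatives were pseudocounts of 0.1 and 0.5, 2 filters, eBayes without a trend, median ratio and quantile scaling, voom on counted reads, the replicate number as a block, and leaving out each library. Positions are 1-based on GRCm38 from M21, and promoters are from RefSeq (GRCm38.p6).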

Additional observations from a re-analysis of the deposited data

How the results depend on the processing

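Eif4ebp1, Sesn2 and Ddit4l kept their direction in all 13 alternative fits and their calls in 11, all but those without a scramble replicate, and Ddit4 kept its call in 8. Over the fits that leave out 1 library, the genes called numbered 0 to 1027 in the whole table, against 1437, then 0 to 4 of the 10 described genes, against 4, and 0 to 9 of the pathway genes, against 15. In the whole table eBayes without a trend called 577 genes. The pathway genes called numbered 4 with eBayes without a trend, 7 without a filter on low values, 9 with a filter at 0.3 FPKM and 23 with voom. In the same order, these fits called 5.11%, 4.85%, 7.14% and 18.2% of all genes they tested. The log2 fold change of Rptor, −0.127, lay between −0.274 and 0.0197 over the fits without 1 library, reversed without scramble replicate 1; it was never called, and the cause was not tested. The replicate numbers mark no shared culture in the labels, and same-numbered libraries did not deviate together (r = −0.0507 over genes). With the replicate block, limma called 1008 genes, 3 of the 10 (Ddit4 had an adjusted p of 0.0545) and 12 pathway genes. A fit without 1 library leaves a group with 1 library, assumed to vary like the other group. Depth limits Sesn1 most, with 5 to 32 counted reads.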
